A study of Mus musculus with 16 samples.

Results

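*Pou5f1* (the gene of OCT4), *Sox2*, *Klf4* and *Myc* are the 4 genes carried by the reprogramming cassette of this experiment. They were taken by gene symbol from a table of 18990 genes, and all 4 had 1 row each and passed the filter on low values that left 14028 genes for testing. The cells were primary fibroblasts of wild-type BL6 mouse embryos at passage 2, infected with a lentivirus that carried the doxycycline-inducible cassette (tet-STEMCCA) and with a second virus for rtTA, the transactivator that doxycycline switches on. They then received a non-targeting siRNA (nt control) or pooled siRNAs against *Wdr5* (siWdr5), *Brca1* (siBrca1) or *Bard1* (siBard1), and were grown on gelatin in medium with doxycycline, chiron, Alk5i, ascorbic acid and LIF. RNA of the bulk culture was sequenced on day 3 and day 6 of induction, which gave 8 groups of 2 libraries, called independent replicates by the study. Every group, the nt control included, carried the cassette and was treated with doxycycline, so the comparisons are between induced cultures, and cells without induction are not analysed here. Reads of the cassette and of the cells' own genes fall into the same 4 rows, and the part of each cannot be told apart, nor can a lower number of cassette-expressing cells and less RNA per cell.

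The 4 proteins are transcription factors that together can turn a fibroblast into a pluripotent cell. OCT4, a POU-domain factor, and SOX2, an HMG-box factor, bind next to each other at composite sites in enhancers of pluripotency genes. KLF4, a zinc finger factor, binds GC-rich promoters and is known in epithelia, where it acts on genes such as *Cdh1* (E-cadherin). c-MYC, a basic helix-loop-helix factor that binds E-boxes with its partner MAX, drives genes of growth, ribosome production and metabolism. In a polycistronic cassette the coding sequences stand in 1 transcript, from which the separate proteins are made. WDR5 is a core subunit of the complexes that methylate lysine 4 of histone H3. BRCA1 and BARD1 form a ubiquitin ligase that acts in DNA repair.

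In the genome (GRCm38, GENCODE vM21 annotation), *Pou5f1* (ENSMUSG00000024406) lies at chr17:35506018-35510772 on the plus strand, with 5 exons in its longest coding transcript. *Sox2* (ENSMUSG00000074637) is a single-exon gene at chr3:34650405-34652461, plus strand, within *Sox2ot*, which shares 0 exon bases with it. *Klf4* (ENSMUSG00000003032) lies on the minus strand at chr4:55527143-55532466, and *Myc* (ENSMUSG00000022346) on the plus strand at chr15:61985391-61990374. The longest annotated coding sequences are 1059, 960, 1452 and 1365 bases long in the order *Pou5f1*, *Sox2*, *Klf4* and *Myc*. A cassette carries coding sequences, but the sequence of this cassette was not at hand, and the lengths in it may differ. Of the 43-base windows (the read length) in the transcripts of *Pou5f1*, 11% also occur in another gene, mostly in the antisense transcript *Gm19553*, so its reads are less certainly its own. For *Klf4* the share was 0.689%, and for *Sox2* and *Myc* it was 0%.

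The siRNAs are shown because the knockdowns are set against the levels of the 4 genes. For each target the study's siRNA library lists 2 sequences, given here as guide strands with the seed (bases 2 to 8) in capitals:

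Wdr5-1: cAUAGUUUggcuuaacuggtg

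Wdr5-2: cACGGUUGaaaugaacggctg

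Brca1-1: aAGGACAUugugaaggccctt

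Brca1-2: aCUAAACCuugugcuuccctg

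Bard1-1: aGAAGAUGugcucacaucctc

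Bard1-2: uUGUCGGUuuaucuugaggtc

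All 6 guides matched the coding sequence of their own target over their first 19 bases.

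The 16 libraries held 11169738 to 26832534 reads, and a factor was covered by 1372 to 13025 reads in each. The targeted transcripts were lower in their own knockdown at day 3: *Wdr5* stood at 132 and 130.5 CPM (counts per 1000000 reads) in the nt control and at 50.6 and 55.3 CPM in siWdr5. *Brca1* went from 82.4 and 78.0 CPM to 37.5 and 19.4 CPM in siBrca1, and *Bard1* from 29.8 ± 1.01 CPM (mean ± SD, n = 2) to 19.4 ± 1.98 CPM in siBard1. *Bard1* was at 9.07 to 15.3 CPM in siWdr5 and siBrca1, below its level in siBard1. At day 6 each target was nearer to its nt control than at day 3. *Wdr5* was at 85.5 and 72.4 CPM in siWdr5, still below the 91.8 and 98.1 CPM of the nt control. *Brca1* was at 35.9 and 40.1 CPM against 33.2 and 42.6 CPM, and *Bard1* at 12.6 and 14.5 CPM against 11.3 and 14.0 CPM. The nt control itself had fallen since day 3 for each target, and *Bard1* in siBard1 fell as well.

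All 4 factors were among the abundant transcripts of every library. Over the 16 libraries *Pou5f1* ranged from 90.2 to 246 CPM, *Sox2* from 95.5 to 350.4 CPM, *Klf4* from 239 to 743 CPM and *Myc* from 224 to 647 CPM. The highest rank any of them reached was 87 (*Klf4*) and the lowest 2187 (*Pou5f1*) among the 18990 genes. Together they took 0.0758% to 0.200% of the reads of a day 3 library and 0.0632% to 0.151% of a day 6 library. Per kilobase of coding sequence, the day 3 nt control held 489 ± 31.9 CPM of *Klf4* (mean ± SD, n = 2), 467 ± 9.45 CPM of *Myc*, 351 ± 19.6 CPM of *Sox2* and 219.6 ± 17.9 CPM of *Pou5f1*. *Klf4* and *Myc* did not differ beyond their spread, and their order turned with exon length in place of coding length, whereas *Sox2* stood below both and *Pou5f1* below *Sox2*. In the day 6 nt control the same scale gave 306 ± 49.2 CPM for *Klf4*, 255 ± 44.8 CPM for *Myc*, 211 ± 23.9 CPM for *Pou5f1* and 199.8 ± 36.3 CPM for *Sox2*, so that neighbours in this order lay within their spread. The scale is rough, since reads of UTRs and of the cassette are divided by the same length.

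**Figure D1:**
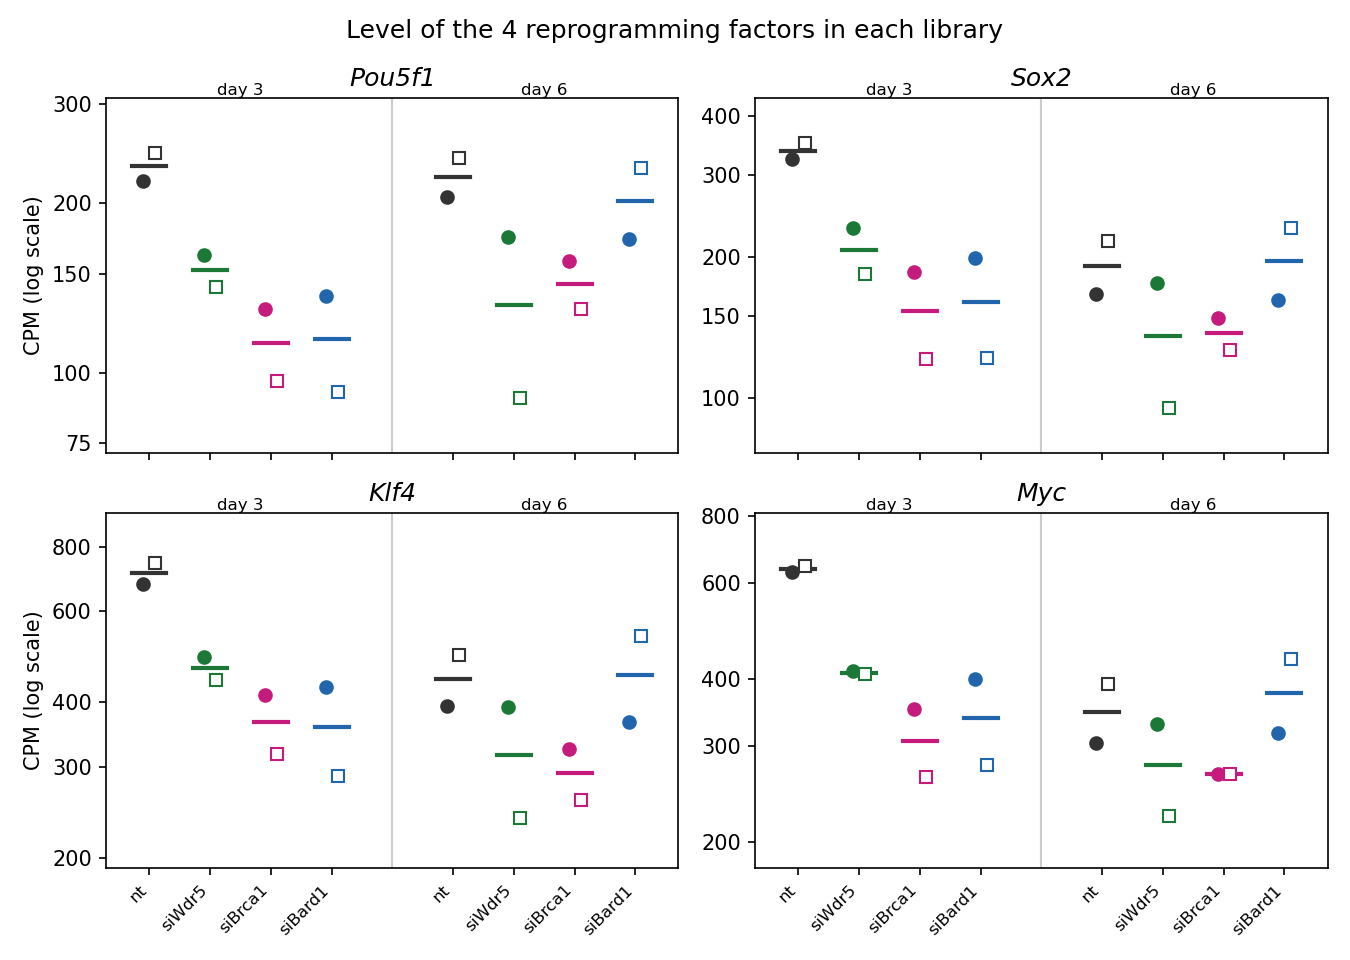
Level of *Pou5f1*, *Sox2*, *Klf4* and *Myc* in each library, in CPM on a log axis, by siRNA group at day 3 (left of each panel) and day 6 (right). Filled circles are replicate 1, open squares replicate 2 and bars the mean of both; at day 3 all knockdown libraries lie below both nt control libraries, and at day 6 the groups overlap in part.

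The first comparison asked whether the knockdown cultures held as much factor RNA as the nt control on day 3, early in the course. They did not: all 4 factors were lower in siWdr5, siBrca1 and siBard1, by about the same amount for each factor within a knockdown. In siWdr5 they stood 34.4% to 38.8% below the nt control, in siBrca1 48.9% to 55.5% and in siBard1 47.8% to 53.7%. In every one of these comparisons both knockdown libraries were below both nt control libraries for all 4 factors.

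*Pou5f1* was at 219 and 246 CPM in the nt control libraries of day 3. It was at 162 and 142 CPM in siWdr5, at 129.9 and 96.6 CPM in siBrca1 and at 137 and 92.5 CPM in siBard1. The replicates of siBrca1 and siBard1 overlapped with each other, and neither reached the nt control. On the log2 scale *Pou5f1* differed from the nt control by −0.61 in siWdr5 (limma, SE 0.17, adjusted p = 0.0132), by −1.04 in siBard1 (SE 0.17, adjusted p = 0.00184) and by −1.05 in siBrca1 (SE 0.17, adjusted p = 2.45e-04).

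*Sox2*, the partner of OCT4, was at 324 and 350.4 CPM in the nt control. It was at 231 and 184 CPM in siWdr5, at 186 and 121 CPM in siBrca1 and at 199 and 122 CPM in siBard1. Of the 4 factors it had the largest difference between replicates on the log2 scale at day 3, with a pooled SD of 0.35 beside 0.24 to 0.27 for the others. The siWdr5 libraries differed from the nt control by −0.71 on the log2 scale (limma, SE 0.21, adjusted p = 0.0188), the siBrca1 libraries by −1.17 (SE 0.21, adjusted p = 5.25e-04) and the siBard1 libraries by −1.11 (SE 0.21, adjusted p = 0.00460). The changes in siBrca1 and siBard1 differed by −0.06 (95% interval −0.51 to 0.40).

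*Klf4* was the most abundant of the 4, with 677 and 743 CPM in the nt control. It stood at 489.6 and 442 CPM in siWdr5, at 413 and 318 CPM in siBrca1 and at 428 and 288 CPM in siBard1. No knockdown library reached the nt control. The differences on the log2 scale were −0.61 (siWdr5; limma, SE 0.17, adjusted p = 0.0123), −0.97 (siBrca1; SE 0.17, adjusted p = 3.75e-04) and −1.02 (siBard1; SE 0.17, adjusted p = 0.00188).

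*Myc* had the closest replicates in the nt control and siWdr5, at 628 and 647 CPM and at 412 and 408 CPM. In siBrca1 it was at 351 and 264 CPM and in siBard1 at 400.2 and 277 CPM. These 2 knockdowns overlapped, with replicate 2 of siBrca1 the lowest of the day and no library near the nt control. *Myc* changed by −0.64 in siWdr5 (limma, SE 0.16, adjusted p = 0.00783), by −0.94 in siBard1 (SE 0.16, adjusted p = 0.00239) and by −1.07 in siBrca1 (SE 0.16, adjusted p = 1.45e-04).

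Among all 14028 genes tested at day 3, 16.8% were lower in siWdr5 at an adjusted p under 0.05, 21.8% in siBrca1 and 5.87% in siBard1, beside 4 of 4 factors each time. Both knockdown libraries lay below both nt control libraries for 39.6%, 38.3% and 33.7% of all genes, so the lack of overlap alone was common. By size of change, 8.78% to 11.9% of all genes had a lower log2 fold change than a given factor in siWdr5, 4.31% to 6.91% in siBrca1 and 0.634% to 1.32% in siBard1. The factors were nearest to the low end of all changes in siBard1, the knockdown with the fewest genes passing. With the study's further threshold of an absolute log2 fold change above 1, which 2.95%, 6.27% and 0.656% of all genes passed on the lower side, 0 factors passed in siWdr5, *Pou5f1*, *Sox2* and *Myc* in siBrca1 and *Pou5f1*, *Sox2* and *Klf4* in siBard1.

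The calls in siBrca1 held without any 1 library. In siWdr5 they did not: without replicate 2 of the nt control the 4 changes were −0.53, −0.65, −0.54 and −0.62 in the order *Pou5f1*, *Sox2*, *Klf4* and *Myc*, with adjusted p from 0.0510 to 0.0963 (limma). Without replicate 1 of siWdr5 they were −0.71, −0.87, −0.68 and −0.64 (adjusted p 0.0537 to 0.0647), without replicate 2 of siWdr5 −0.52, −0.55, −0.54 and −0.63 (adjusted p 0.0658 to 0.185), and without replicate 1 of the nt control only *Sox2* was lost, at −0.77 (adjusted p = 0.0575). In siBard1 only *Sox2* was lost, without replicate 2 of siBard1, at −0.76 (adjusted p = 0.0814).

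The cultures also differed in cell type markers at day 3. The summed level of 10 fibroblast markers was 9747 to 10931 CPM in the nt control, 18258 to 18803 CPM in siWdr5, 17105 to 17751 CPM in siBrca1 and 12581 to 14499 CPM in siBard1. Of these 10 genes, 9 rose in siWdr5, 8 in siBrca1 and 2 in siBard1, and 0 fell, where 18.3%, 25.4% and 8.67% of all genes tested rose. The summed level of 4 epithelial markers was 43.1 to 64.4 CPM in the nt control, 19.9 to 20.1 CPM in siWdr5, 21.3 to 34.8 CPM in siBrca1 and 36.0 to 43.7 CPM in siBard1. Of these 4 genes, 3 fell in siWdr5, 2 fell and 1 rose in siBrca1, and 0 passed in siBard1. Among all genes tested 16.8%, 21.8% and 5.87% fell, in the same order. The part of the fibroblast and epithelial markers in the lower factor levels was not tested.

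**Figure D2:**
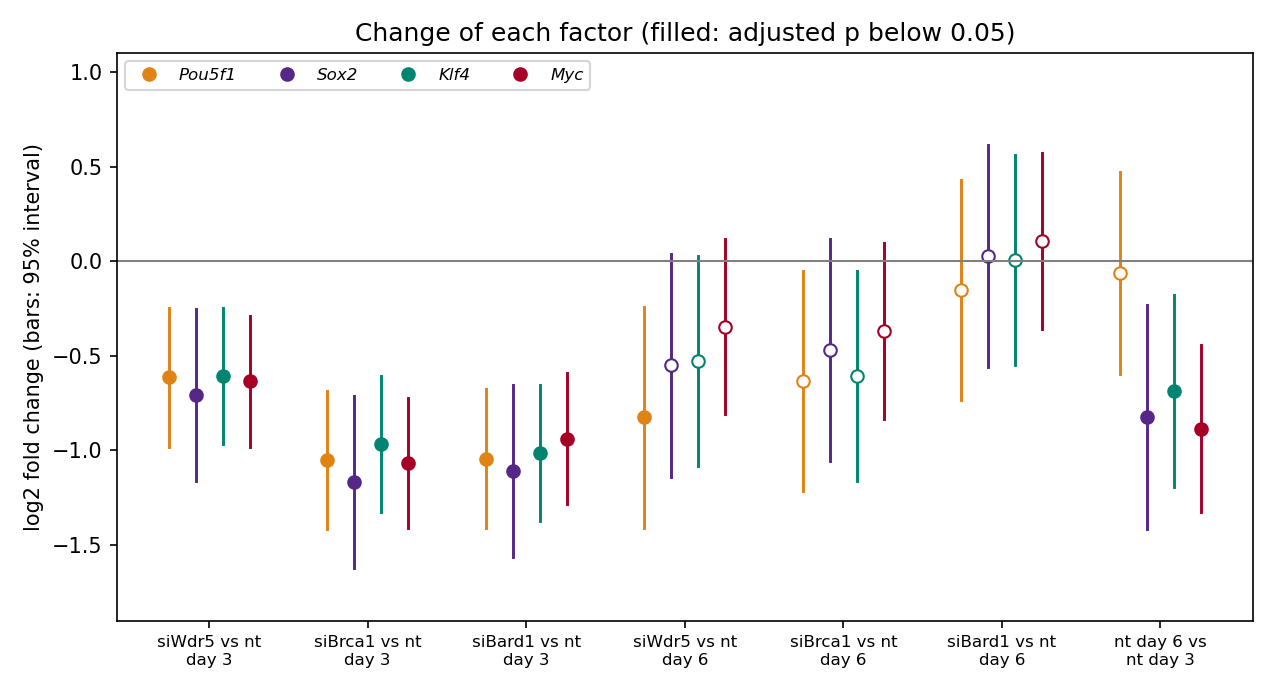
Log2 fold change of each factor (colours) in each knockdown relative to the nt control of the same day, and in the nt control from day 3 to day 6; bars are 95% intervals and filled points passed at an adjusted p under 0.05. At day 3 the 12 points lie between −1.17 and −0.61, and at day 6 only *Pou5f1* in siWdr5 passed.

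Set against each other at day 3, no factor passed between any 2 knockdowns. The 4 factors were higher in siWdr5 than in siBrca1 by 0.36 to 0.46 on the log2 scale (limma, adjusted p 0.0836 to 0.160) and than in siBard1 by 0.30 to 0.43 (adjusted p 0.131 to 0.255). For *Pou5f1* the difference from siBrca1 was 0.44, with a 95% interval of 0.07 to 0.80, and for *Myc* 0.43, with an interval of 0.09 to 0.78. Between siBrca1 and siBard1 the differences ran from −0.13 to 0.05 (adjusted p 0.604 to 0.980), and the interval for *Klf4* reached from −0.31 to 0.41. Of all genes 15.7%, 8.63% and 21.4% passed in these 3 comparisons, beside 0 factors. At an unadjusted p under 0.05, 4 factors differed between siWdr5 and siBrca1, 2 between siWdr5 and siBard1 and 0 between siBrca1 and siBard1, and limma-voom on the reads also passed 0 in each. Replicate 1 of siBrca1 decided the first of these: without it the factors were 0.55 to 0.77 higher in siWdr5, and all 4 passed (adjusted p 7.36e-04 to 0.00795). Without replicate 1 of siBard1, *Pou5f1* and *Klf4* passed against siBard1, at 0.71 and 0.69. With only the 4 libraries of siWdr5 and siBard1 in the fit, *Pou5f1*, *Sox2* and *Klf4* passed at unchanged differences (limma, adjusted p = 0.00452, 0.00955 and 0.0171).

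The second comparison set the knockdowns against the nt control on day 6. Only *Pou5f1* in siWdr5 passed, in 12 comparisons of a factor with the nt control. In siBrca1 the 4 factors were 22.6% to 35.6% below the nt control but did not pass, and in siBard1 they lay between 10.0% below and 7.66% above it.

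*Pou5f1* at day 6 was at 205 and 241 CPM in the nt control, at 174 and 90.2 CPM in siWdr5, at 158 and 129.7 CPM in siBrca1 and at 173 and 231 CPM in siBard1. *Sox2* was at 167 and 216 CPM in the nt control, 177 and 95.5 CPM in siWdr5, 149 and 127 CPM in siBrca1 and 162 and 231 CPM in siBard1. In siWdr5 the 2 libraries stood far apart for both genes, with replicate 1 below the nt control for *Pou5f1* and inside its range for *Sox2*, and replicate 2 at the lowest level of all 16 libraries. *Klf4* was at 393 and 495 CPM in the nt control, 392 and 239 CPM in siWdr5, 325 and 258 CPM in siBrca1 and 366 and 536 CPM in siBard1. *Myc* was at 305 and 391 CPM in the nt control, 329.9 and 224 CPM in siWdr5, 267 and 267 CPM in siBrca1 and 317 and 435 CPM in siBard1. Replicate 2 of siWdr5, the library with most reads (26832534), was the lowest for *Klf4* and *Myc* as well, and the siBrca1 libraries were below both nt control libraries for all 4 factors.

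The log2 fold change of *Pou5f1* in siWdr5 was −0.83 (SE 0.26, limma, adjusted p = 0.0475), where 5.7% of all genes were lower at an adjusted p under 0.05. *Sox2*, *Klf4* and *Myc* gave −0.55, −0.53 and −0.35 (adjusted p 0.152 to 0.252). The result turned on single libraries: without replicate 2 of siWdr5 *Pou5f1* stood at −0.35 (adjusted p = 0.361), and without replicate 1 or 2 of the nt control at −0.94 and −0.71 (adjusted p = 0.116 and 0.209). Without replicate 1 of siWdr5 it stood at −1.30, and *Sox2* and *Klf4* passed as well, at −0.99 and −0.88 (adjusted p = 0.0279 and 0.0466).

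In siBrca1 the log2 fold changes at day 6 were −0.64, −0.47, −0.61 and −0.37 for *Pou5f1*, *Sox2*, *Klf4* and *Myc* (limma, adjusted p 0.589 to 0.680). No gene of the 14028 passed there (0%), with limma or with limma-voom on the reads, and 1123 genes had an unadjusted p under 0.05, *Pou5f1* and *Klf4* among them. Both siBrca1 libraries were below both nt control libraries for 15% of all genes. In siBard1 the changes were −0.15, 0.03, 0.01 and 0.11 (adjusted p 0.836 to 0.994), with 0.0784% of all genes passing, all of them higher, and 1908 genes at an unadjusted p under 0.05, 0 factors among them. The 95% interval of *Klf4* in siBard1 was −0.55 to 0.56 at day 6 and −1.37 to −0.66 at day 3. These did not overlap, nor did those of *Sox2* and *Myc*. For *Pou5f1* the intervals were −0.73 to 0.43 and −1.41 to −0.68, which overlap. The difference between the days, given below, did not pass for any factor in the main fit.

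Whether the change differed between the days was tested as an interaction in all 16 libraries. In siBard1 the day 6 change exceeded the day 3 change by 0.89, 1.14, 1.02 and 1.04 on the log2 scale for *Pou5f1*, *Sox2*, *Klf4* and *Myc*, with unadjusted p of 0.00267 to 0.0236 but adjusted p of 0.0840 to 0.185 (limma). Only 0.0499% of all genes passed in this interaction. With only the libraries of siBard1 and the nt control, *Sox2* and *Myc* passed (adjusted p = 0.0459 and 0.0384, the lowest of ranges over the alternatives that reached 0.238 and 0.169). In siBrca1 the differences were 0.36 to 0.70 (adjusted p 0.102 to 0.481, 20.5% of all genes passing), and *Myc* passed without replicate 1 of siBrca1 at day 3, at 0.90 (adjusted p = 0.0443). In siWdr5 they were −0.21 to 0.29 (adjusted p 0.597 to 0.918, 4.43% passing), beside a shift of the median gene of 0.12. Limma-voom also passed 0 factors in the 3 interactions.

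The third comparison followed the nt control from day 3 to day 6. *Sox2*, *Klf4* and *Myc* fell and *Pou5f1* did not pass. *Sox2* went from 324 and 350.4 CPM to 167 and 216 CPM, a log2 fold change of −0.82 (SE 0.28, limma, adjusted p = 0.0239). *Klf4* changed by −0.69 (SE 0.24, adjusted p = 0.0275) and *Myc* by −0.89 (SE 0.21, adjusted p = 0.00260). *Pou5f1* went from 219 and 246 CPM to 205 and 241 CPM, a change of −0.06 with a 95% interval of −0.60 to 0.47 (adjusted p = 0.858). Among all genes 27.1% were lower at day 6 at an adjusted p under 0.05. *Myc* held without each library, whereas *Sox2* and *Klf4* were lost without either day 3 library or without replicate 1 of day 6, where they stood at −0.64 and −0.52 (adjusted p = 0.170 and 0.189). Without the day 3 libraries in turn they stood at −0.88 and −0.77 for *Sox2* and at −0.75 and −0.62 for *Klf4*. *Pou5f1* turned to 0.13 under quantile normalization and to 0.02 and 0.053 without replicate 2 of day 3 and replicate 1 of day 6.

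The course of *Pou5f1* was set apart from the other factors of the cassette by its relative level, that is its log2 CPM minus the mean of the other 3 in the same library. This measure was chosen after the values were seen, and its p-values do not allow for that choice. At day 3 it was nearly constant over the 8 libraries, at −1.24 to −1.15 for *Pou5f1*. At day 6 it was −0.93 to −0.40, above every day 3 library, and the mean difference was 0.55 (exact two-sided permutation of the day within each siRNA group, p = 0.00154, the smallest that the 1296 arrangements can give, adjusted p = 0.00309 over 4 factors). The nt control libraries of day 6 were highest, at −0.40 and −0.53, and the siWdr5 libraries lowest, at −0.70 and −0.93. Because the measure is relative, a rise of 1 factor lowers the other 3, and the tests of the 4 factors are not independent. *Sox2* moved by −0.16, *Klf4* by −0.15 and *Myc* by −0.23 (same permutation test, adjusted p = 0.0108, 0.00309 and 0.0103), and their days overlapped. The difference for *Pou5f1* was 0.52 to 0.59 without each library in turn.

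**Figure D3:**
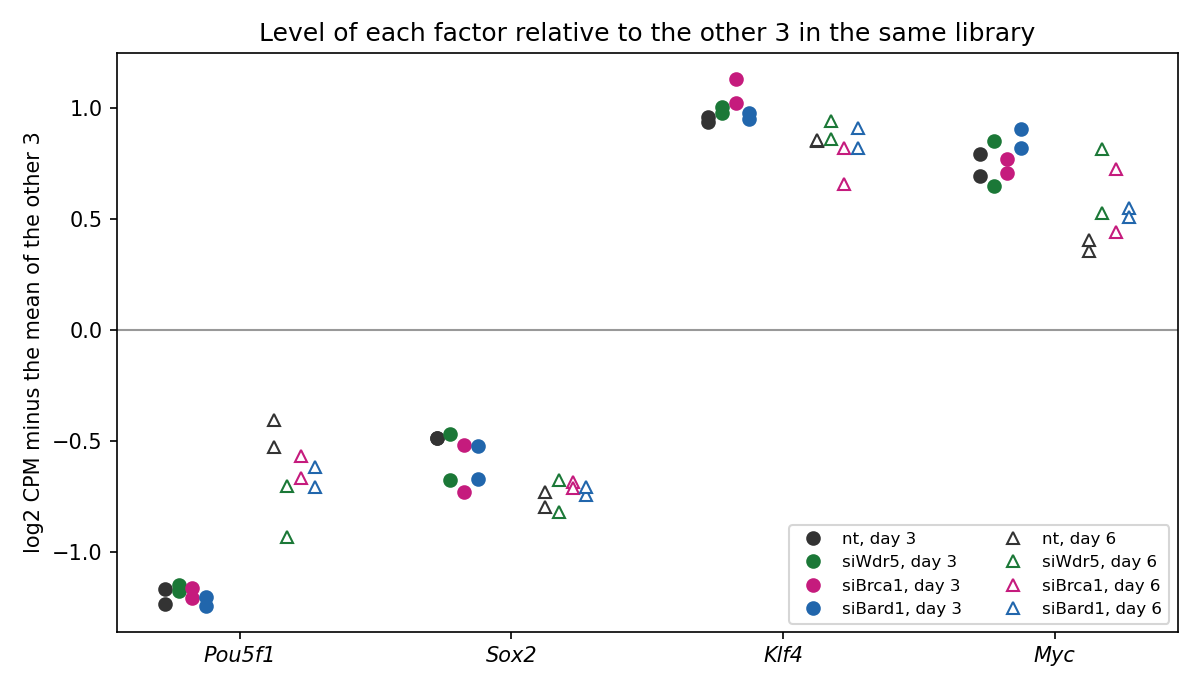
Log2 CPM of each factor minus the mean of the other 3 in the same library, for the 8 libraries of day 3 (filled circles) and day 6 (open triangles), coloured by siRNA group. *Pou5f1* lies between −1.24 and −1.15 at day 3 and between −0.93 and −0.40 at day 6, without overlap; the other factors overlap between the days.

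Within a day the 4 factors rose and fell together from library to library. Over the 8 libraries of day 3, Pearson's r between factors was 0.984 to 0.998 and Spearman's rho 0.905 to 1 in the 6 pairs (exact permutation test, adjusted p over 12 relations at most 9.20e-04 for r and 0.00498 for rho). At day 6 r was 0.908 to 0.978 and rho 0.881 to 0.976 (adjusted p at most 0.00164 and 0.00724). Without the 2 libraries farthest from the median, r remained at 0.952 to 0.994 at day 3 and at 0.830 to 0.988 at day 6. *Pou5f1* and *Klf4* were closest at day 3, at 0.998, and *Pou5f1* and *Myc* least close at day 6, at 0.908. The pooled r contains the differences between the siRNA groups, in particular the gap to the nt control at day 3. The permutation moved libraries freely between the siRNA groups, so its p-values contain these differences too. They do not test whether the factors vary together within a group. Within most groups the replicates of all 4 factors differed in 1 direction: replicate 1 was above replicate 2 for all 4 factors in siBrca1 and siBard1 at day 3 by 0.38 to 0.62 and 0.53 to 0.71 on the log2 scale and in siWdr5 at day 6 by 0.56 to 0.95. It was below replicate 2 for all 4 in both nt control groups and in siBard1 at day 6, by 0.42 to 0.55 in the latter. In siWdr5 at day 3 *Myc* differed by 0.016 between replicates beside 0.15 to 0.32 for the other 3, and in siBrca1 at day 6 by −0.00086 beside 0.23 to 0.33.

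Over the 16 libraries, with log2 CPM centred on the mean of each day, the genes most like a factor were mainly the other factors. *Sox2* and *Klf4* were each other's nearest of all genes tested (r = 0.982), and *Pou5f1* was nearest to *Sox2* (r = 0.978), as was *Myc* (r = 0.978). The lowest likeness of any pair was 0.943, between *Pou5f1* and *Myc*. Outside the cassette the nearest genes were *Phyhip* (0.953), *Shisa8*, *Gcat*, *2610318N02Rik* and *Itpk1* for *Pou5f1*. *Itpk1*, an inositol phosphate kinase, was nearest to *Sox2* (0.948) and *Klf4* (0.935), followed for both by *Celsr1*, *Gcat* and *Phyhip* with *Shisa8* for *Sox2* and *2610318N02Rik* for *Klf4*. For *Myc* they were *Rbmxl1* (0.955), *Atg4d*, *Itpk1*, *Celsr1* and *Gcat*. Centring on the day leaves the differences between the siRNA groups in r, in particular the gap to the nt control at day 3. Without the centring, r to the named genes outside the cassette ran from 0.344 (*Rbmxl1* with *Myc*) to 0.933 (*Shisa8* with *Sox2*). These values describe the libraries and carry no test.

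Relatives of the 4 factors were counted at day 3, when 16.8%, 21.8% and 5.87% of all genes tested fell and 18.3%, 25.4% and 8.67% rose in siWdr5, siBrca1 and siBard1. Of 5 POU relatives tested, 4 fell in siWdr5, 2 in siBrca1 and 1 in siBard1, among them *Pou2f1* (OCT1), the ubiquitous member, in all 3 (−0.58, −0.83 and −0.45; limma, adjusted p = 0.00203, 8.60e-05 and 0.0210). On this list *Pou3f3*, *Pou3f4* and *Pou4f1* stood at only 1.32 to 4.95 CPM in the nt control of day 3, so their changes are uncertain. Of 12 Sox relatives, 4 rose and 3 fell in siWdr5, with *Sox9* at 1.78 (adjusted p = 4.10e-06), 1 rose and 1 fell in siBrca1, and 2 fell in siBard1. Of 13 Klf relatives, 5, 7 and 3 rose and 3, 3 and 1 fell, in the same order. The falling counts of both lists in siWdr5, and of the Klf list in siBrca1 and siBard1, lie near the shares of all genes. Both Sox counts in siBrca1 lie below these shares. *Klf2*, which can take the place of *Klf4* in reprogramming, rose in all 3 knockdowns (0.91, 1.57 and 0.81; adjusted p = 0.00554, 7.99e-05 and 0.0247), opposite to *Klf4*. Among 11 genes of the Myc family and the MAX network, 1 rose in siWdr5, 2 rose and 1 fell in siBrca1 and 0 passed in siBard1, with *Mycn* at −1.53 in siBrca1 (adjusted p = 5.84e-04). The counts of this list lie below the shares of all genes. *Max* itself changed by −0.12, −0.13 and −0.14 and did not pass.

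Lists of genes that the factors are known to act on were read beside them at day 3, against the same shares of all genes. Of 20 Myc target genes, 11 fell and 1 rose in siWdr5, 18 fell and 1 rose in siBrca1, and 9 fell and 0 rose in siBard1. Their median log2 fold changes were −0.33, −0.69 and −0.39, beside −0.04, 0.00 and −0.02 for all genes tested. *Nop58*, a nucleolar protein of ribosomal RNA modification, changed by −1.01 in siBrca1 and *Shmt2*, a mitochondrial enzyme of serine metabolism, by −0.74 in siWdr5 and −0.73 in siBard1. *Ccnd2*, a cyclin, was the target that rose in siWdr5 and siBrca1. Of 14 genes bound by OCT4 and SOX2 in pluripotent cells, 2 fell and 1 rose in siWdr5, 5 fell and 1 rose in siBrca1 and 2 fell in siBard1, where the count in siWdr5 lies near the share of all genes. *Sall4*, a zinc finger factor that partners OCT4 and is induced early, fell in all 3, with log2 fold changes of −2.44, −1.35 and −1.21.

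Of 12 epithelial genes linked to KLF4, 4 fell and 2 rose in siWdr5, 2 fell and 3 rose in siBrca1, and 1 rose in siBard1. The counts in siBrca1 and siBard1 lie near the shares of all genes, which in siBrca1 were 21.8% and 25.4%. In siBrca1, 2 of those that fell and 1 of those that rose changed by more than 2-fold. *Cdh1* changed by −1.46 in both siWdr5 and siBrca1 and *Epcam*, an epithelial adhesion molecule, by −1.93 and −1.46, whereas in siBard1 they stood at −0.44 and −0.38 and did not pass. Of 17 partners and coregulators of the factors, 4 fell and 2 rose in siWdr5, 6 fell and 1 rose in siBrca1, and 3 fell in siBard1, counts that in siWdr5 are near the shares of all genes. *Nr5a2*, a nuclear receptor that acts on the *Pou5f1* promoter, changed by −1.91 in siWdr5 and −2.15 in siBrca1. *Wdr5* is itself on this list, and fell in all 3 knockdowns. Among other markers, of 6 pluripotent cell markers tested 1 fell in siBrca1, of 3 macrophage markers 1 rose in siWdr5 and 2 in siBrca1, and of 2 endothelial markers 0 passed in any knockdown at day 3. The 8 listed pluripotent cell markers summed to only 2.57 to 3.79 CPM in the nt control of day 3. With 0 reads a gene stands at 0.136 CPM, so a fall of these markers could hardly be seen. By day 6, 0 of the 102 genes on the lists of relatives, targets and partners passed in siBrca1 and siBard1, where 0% and 0.0784% of all genes did, and 25 passed in siWdr5, where 21.8% of all genes did.

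In the nt control between day 3 and day 6, most of the OCT4 and SOX2 targets and of the epithelial genes rose and most of the Myc targets fell, where 19% of all genes rose and 27.1% fell. Of the 14 OCT4 and SOX2 targets, 10 rose and 1 fell, with *Dppa5a* at 8.04, *Tdgf1* at 6.33 and *Nanog*, the homeobox factor of the pluripotent state, at 6.09 on the log2 scale, while *Sox2* fell and *Pou5f1* did not pass. Of the 12 epithelial genes, 9 rose and 0 fell, with *Krt8* at 5.21, *Krt18* at 5.20 and *Cdh1* at 1.97, while *Klf4* fell. Of the 20 Myc targets, 13 fell and 2 rose, with *Cad*, an enzyme of pyrimidine synthesis, at −1.30, as *Myc* fell. All 6 pluripotent cell markers tested and all 4 epithelial markers rose, and their summed levels went from 2.57 to 3.79 CPM to 148 CPM and from 43.1 to 64.4 CPM to 505 to 680 CPM. The pluripotent cell sum covers 8 genes and at day 3 lay near the value of 0 reads, 0.136 CPM per gene. The size of rises from such levels is uncertain. Among the fibroblast markers 3 rose and 4 fell, and their sum went to 5647 to 5872 CPM. The family members *Sox15* (3.93) and *Mycn* (1.44) rose over this time and *Pou2f1* (−1.16) and *Klf8* (−1.52) fell.

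**Figure D4:**
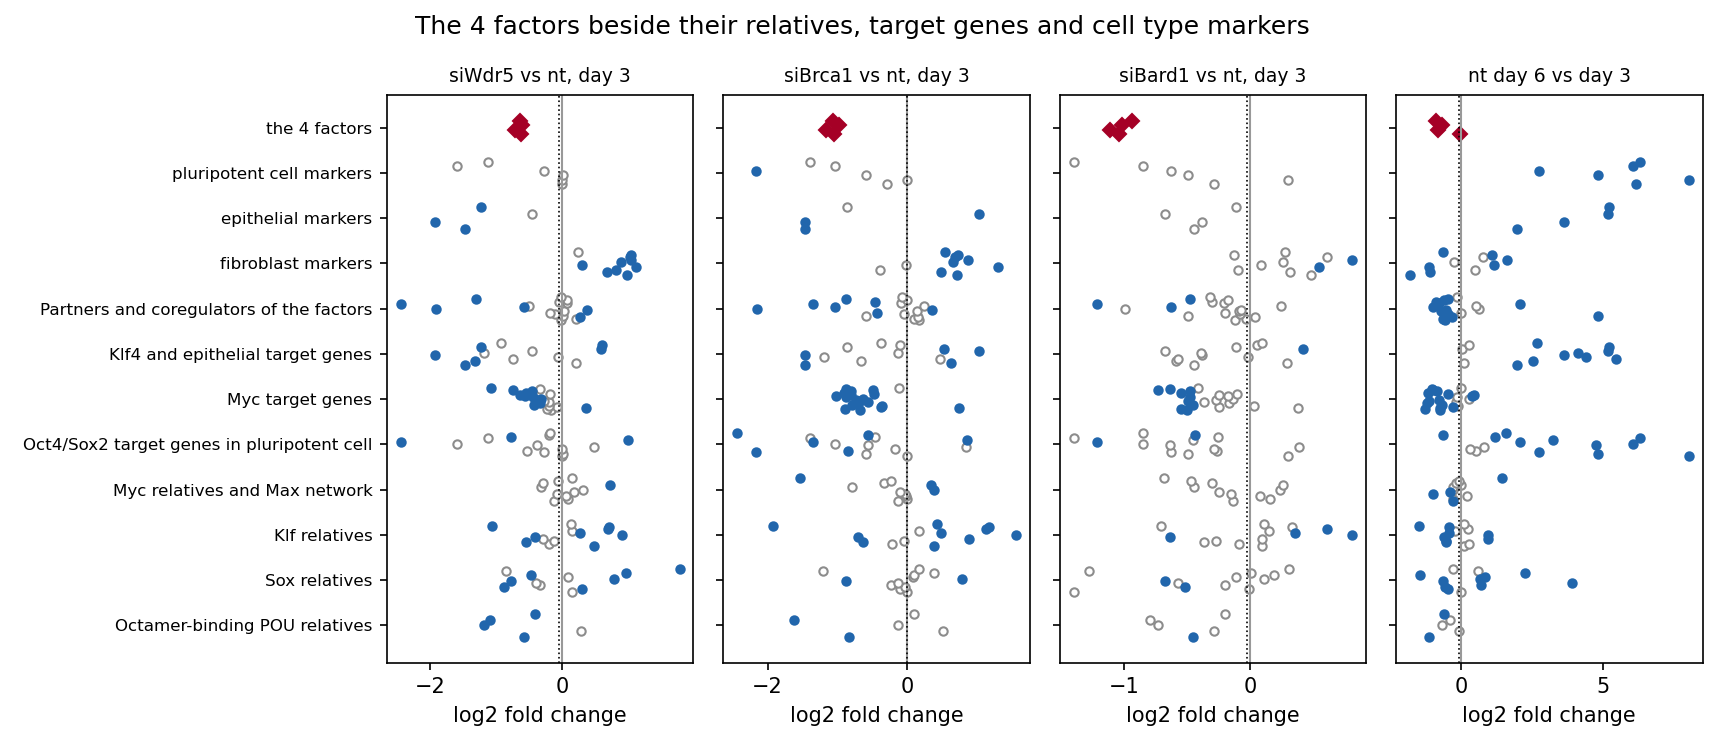
Log2 fold change of the 4 factors (diamonds) and of the genes on each list (circles, filled when the adjusted p was under 0.05) in the 3 knockdowns at day 3 and in the nt control from day 3 to day 6; the dotted line is the median of all genes tested and the axes differ in range. The factors lie between −1.17 and −0.61 in the knockdowns, beside Myc targets mostly below 0 and fibroblast markers mostly above 0.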

How the data were processed

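The authors prepared 16 libraries from 200 ng of total RNA with depletion of ribosomal RNA, sequenced them paired-end with reads of 43 bases and, per the submitters' processing notes, aligned with STAR 2.5.2b to mm10 and computed log2 CPM (edgeR 3.20.9). How reads were counted, on which annotation and with which filter is not given in the sources used here. The deposited unit is log2 CPM, already scaled between libraries and raised by a small prior, so that 0 reads stand at 0.136 CPM. Whole reads were recovered from these values (100% within 0.01 read, up to 100000 reads), and CPM in the text is 2 to the power of the deposited value.

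Genes whose mean log2 CPM over all libraries was 0 or more were fitted with limma 3.58.1 in R 4.3.3 (trend on mean expression, 1 mean per group), in the 8 libraries of a day or, for the nt control course and the interactions, in all 16. P-values are two-sided and Benjamini-Hochberg adjusted over 14028 genes, and a gene passed at an adjusted p under 0.05. In counts and shares of genes, those that rose or fell are those that passed. The study's test (DESeq2) takes counts and not this unit, and it was not run on the recovered reads. Limma-voom on the recovered reads stands in for it as an alternative. Correlations used exact permutation tests (scipy 1.17.1). The code of the fits was also run on simulated counts, with the same dispersion for every gene and no shift shared by replicates. That setting differs from these data, so it gives no measure of the error of the calls here. Sequences of the siRNAs come from the study's supplementary list, which holds 2 of the 3 per target pooled by the study, and gene models from GENCODE vM21. A comparison of siRNA seeds with coding sequence is not reported here.

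The 4 genes and all lists were chosen with earlier results of these data known. The genes named from a list are, up to 4 in each comparison, those with the largest change among those that passed, plus those needed as background, and for each factor the 5 genes most like it. The labels call replicates biological and the study's legends independent experiments. Alternatives were other filters, scalings, pseudocounts and samples, and leaving out each library.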

Additional observations from a re-analysis of the deposited data

How the results depend on the processing

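Of the alternatives other than leaving out a library, 483 values kept their direction and side of the threshold, many of them in comparisons that had not passed. Beside these, 20 lost a call, 8 gained a call, 9 turned sign, and 7 list counts or ratios of levels moved. In siWdr5 at day 3, *Pou5f1*, *Sox2* and *Klf4* did not pass with no filter on low values (−0.61, −0.71 and −0.61; limma, adjusted p = 0.0596, 0.0830 and 0.0563), without the trend (adjusted p = 0.0798, 0.103 and 0.0733) or in all 16 libraries (adjusted p = 0.0729, 0.0628 and 0.0618), and *Myc* (−0.64) not without the trend (0.0579). In siBard1 at day 3, *Sox2* (−1.11) was lost without a filter (0.0504) or a trend (0.0742) and *Myc* (−0.94) without a trend (0.0501). At day 6 *Pou5f1* in siWdr5 was lost without a filter or a trend (−0.83; 0.0529 and 0.110) and with limma-voom (−0.81; 0.0503). In the nt control *Sox2* and *Klf4* were lost without a trend (−0.82 and −0.69; 0.0619 and 0.0651) and with quantile normalization (−0.64 and −0.62; 0.111 and 0.0639), which turned *Pou5f1* to 0.13. The cause was not tested. In the 4 libraries of siWdr5 and siBard1 alone, *Pou5f1*, *Sox2* and *Klf4* differed at day 3 (0.43, 0.40 and 0.41), and in the libraries of siBard1 and the nt control the interaction passed for *Sox2* (1.14) and *Myc* (1.04). Small changes turned sign: in siBard1 at day 6 *Sox2* and *Klf4* to −0.0468 and −0.0674 with median centring, *Sox2*, *Klf4* and *Myc* to −0.109, −0.0925 and −0.0544 with quantile normalization and *Klf4* to −0.00548 with limma-voom; *Klf4* in siBrca1 against siBard1 to −0.16 with quantile normalization; and *Klf4* in the siWdr5 interaction to −0.0525 with median centring. With the fold threshold of the study the list genes that passed went from 46 to 13 in siWdr5, 53 to 15 in siBrca1 and 21 to 1 in siBard1 at day 3, from 25 to 5 in siWdr5 at day 6 and from 69 to 32 in the nt control.

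The labels do not say that a replicate number marks an experiment shared between groups, and the numbers were not taken to pair the samples: the replicate differences of 2 groups correlated across genes at −0.09 to 0.07 on day 3 and at −0.07 to 0.26 on day 6, with 0 and 3 of 6 pairs above 0.1. With the replicate number as a block, *Pou5f1*, *Sox2* and *Myc* passed between siWdr5 and siBrca1 at day 3 (0.44, 0.46 and 0.43; adjusted p = 0.0334, 0.0359 and 0.0345), and the block changed no other call of the factors.

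Leaving out 1 library leaves a group with 1 sample, which is assumed to vary like the other groups. It changed the call of a factor 32 times and turned the sign of a small change 23 times. In siWdr5 at day 3 the range was −0.71 to −0.52 for *Pou5f1*, −0.87 to −0.55 for *Sox2*, −0.68 to −0.54 for *Klf4* and −0.66 to −0.62 for *Myc*. In siBard1 at day 3 the range was −1.47 to −0.76 for *Sox2*. In siWdr5 at day 6 the range was −1.30 to −0.35 for *Pou5f1*, −0.99 to −0.11 for *Sox2* and −0.88 to −0.17 for *Klf4*. In siBard1 at day 6 the range was −0.36 to 0.0567 for *Pou5f1*, −0.23 to 0.28 for *Sox2*, −0.27 to 0.28 for *Klf4* and −0.12 to 0.33 for *Myc*. In siWdr5 against siBrca1 at day 3 the range was 0.22 to 0.65 for *Pou5f1*, 0.15 to 0.77 for *Sox2*, 0.17 to 0.55 for *Klf4* and 0.22 to 0.64 for *Myc*. In siWdr5 against siBard1 at day 3 the range was 0.15 to 0.71 for *Pou5f1* and 0.12 to 0.69 for *Klf4*. In siBrca1 against siBard1 at day 3 the range was −0.29 to 0.28 for *Pou5f1*, −0.41 to 0.30 for *Sox2*, −0.24 to 0.33 for *Klf4* and −0.40 to 0.14 for *Myc*. In the nt control the range was −0.18 to 0.0532 for *Pou5f1*, −1.01 to −0.64 for *Sox2* and −0.85 to −0.52 for *Klf4*. In the siWdr5 interaction the range was −0.69 to 0.26 for *Pou5f1*, −0.29 to 0.60 for *Sox2* and −0.28 to 0.44 for *Klf4*. In the siBrca1 interaction the range was 0.49 to 0.90 for *Myc*.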
